A study of Arabidopsis thaliana with 4 samples.

Results

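The genes described here are 10 regulators of root hair formation and epidermal patterning, taken by locus identifier from the 32833 genes of the deposited count table. The basic helix-loop-helix (bHLH) genes RHD6 (AT1G66470), RSL1 (AT5G37800), RSL2 (AT4G33880), RSL4 (AT1G27740) and LRL3 (AT5G58010) drive root hair growth. The patterning genes are GL2 (AT1G79840), WER (AT5G14750), CPC (AT2G46410), TTG1 (AT5G24520) and EGL3 (AT1G63650). All were measured by RNA sequencing in callus grown from hypocotyl explants of Arabidopsis thaliana. The wox5-1 wox7-1 mutant carries mutations in the homeobox genes WOX5 and WOX7, and Col-0 was the wild type. Seedlings had been kept 9 days in darkness, and explants of both genotypes were then cultured under continuous light on callus induction medium with 11 µM of the auxin 2,4-D and 0.2 µM of the cytokinin kinetin. The labels call the stage 6 days, and the protocol gives 5 to 6 days. Each genotype had 2 libraries, and RNA came from about 100 calli. Whether the replicates were grown as separate cultures is not in the labels, and the p-values thus reflect the spread among these 4 libraries alone, which may be technical.

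In the Arabidopsis root epidermis, cells that touch a boundary between underlying cortical cells form hairs and their neighbours do not. In future hairless cells the MYB protein WER, the bHLH proteins GL3 and EGL3 and the WD40 protein TTG1 form a complex that switches on GL2, a homeodomain repressor of the hair programme. The small MYB protein CPC moves into future hair cells and competes with WER there. Where GL2 is off, RHD6 and RSL1 act first, RSL2 and RSL4 act after them, and LRL3 with its relatives also promotes hair growth. Callus induced by auxin resembles a lateral root primordium, and WOX5 is best known from the stem cell niche of the root tip.

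Reads assigned to genes numbered 35078420 and 40008661 in the mutant and 30041268 and 35975440 in the wild type. WOX5 had 9 and 33 reads in the mutant and 4378 and 5268 in the wild type. WOX7 had 790 and 864 reads in the mutant and 449 and 473 in the wild type. This does not check the wox7-1 allele, since a count per gene does not show where in the gene the reads lie. Of the primordium markers, SCR (179 ± 5.57 CPM in the mutant, 297 ± 18.4 in the wild type) and PLT2 (55.8 ± 1.70 and 71.6 ± 1.20) were present in both genotypes (reads scaled to library size, CPM; SD, n = 2 each). Of 18716 genes tested across the table with edgeR's quasi-likelihood test, 11.9% passed an adjusted p of 0.05, 6.06% with higher and 5.81% with lower levels in the mutant. The share was 20.7% with DESeq2, 25.4% with the replicate number as a block and 9.07% with limma-voom, and each of these called 1 of the 10 regulators. Of 7 listed callus and primordium markers, all tested, 1 rose, 3 fell and 3 did not pass, beside 6.06% and 5.81% of all tested genes. The 7 include the mutated genes WOX5 and WOX7, so this count is not independent of the genotype. WOX7 was the one that rose (edgeR adjusted p = 0.0335). SCR (edgeR adjusted p = 0.0223) and PLT2 (0.0454) fell along with WOX5, so both were present but lower in the mutant. The PLT2 change was small (log2 fold change -0.36). It missed the threshold with limma-voom (adjusted p = 0.0546) and in the counts as deposited (edgeR adjusted p = 0.113). The WOX7 and PLT2 calls were also lost when mutant replicate 1 or mutant replicate 2 was left out. With wild type replicate 1 or replicate 2 left out, edgeR called 0 genes of the whole table, with 3428 and 3346 genes at an unadjusted p under 0.05, while DESeq2 called 1334 and 1210. Every edgeR call given here is therefore lost without either wild type library. Leaving out mutant replicate 2 left 1198 genes called by edgeR.

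RHD6 was the one regulator of the 10 that changed past the threshold, and it rose 18.8-fold in the mutant callus. Its close relative RSL1 had no read in any library, and the genes that act after them, RSL2 and RSL4, had at most 3 reads in a library. The patterning genes TTG1 and CPC were well expressed in both genotypes and did not pass the test. WER, EGL3 and LRL3 were lower in level, and GL2 was near the limit of detection. Of the 10 genes, 7 had enough reads to be tested, 1 rose, none fell and the other 6 missed the threshold, beside 11.9% of all tested genes that passed. Genotypes did not overlap for 5 of these 7 genes, beside 64.4% of all tested genes. GL2 is among the 5, but it passed the read-count filter through its mutant libraries alone, which fixed its lack of overlap. The median log2 fold change of the 7 genes was 0.18, and that of all tested genes was -0.001.

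**Figure D1:**
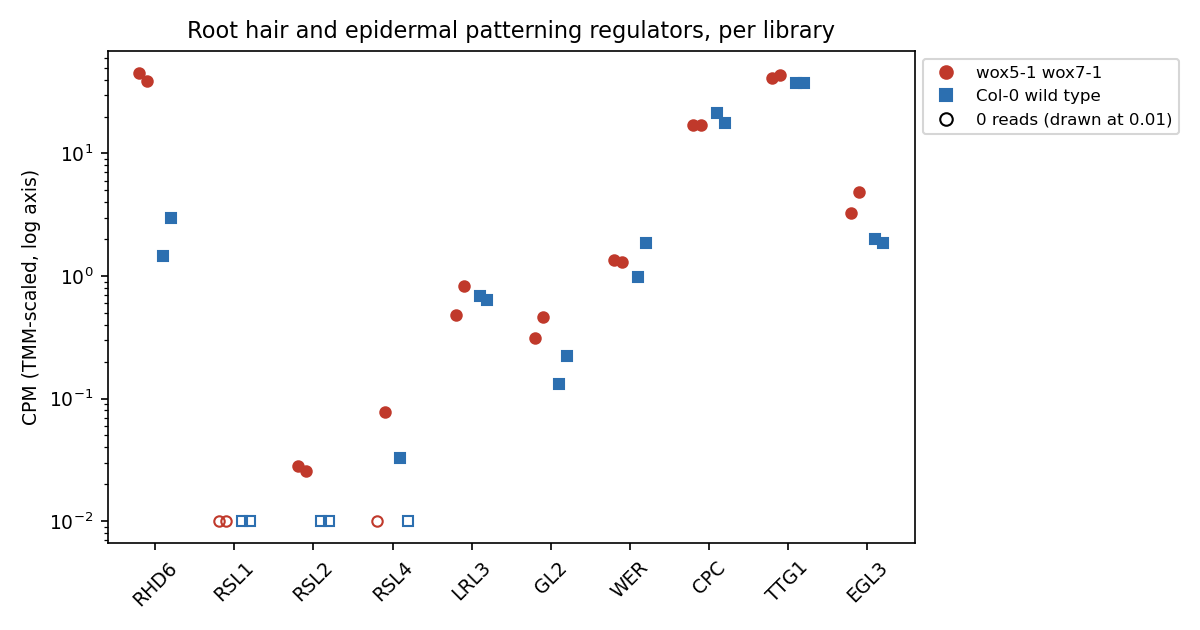
Level of each of the 10 regulators in every library, in CPM on a log axis, with wox5-1 wox7-1 as circles left of the Col-0 wild type as squares and open symbols for 0 reads. RHD6 stands at 45.2 and 38.7 CPM in the mutant and 1.45 and 2.96 CPM in the wild type, whereas TTG1 and CPC lie close together in both genotypes.

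RHD6, a bHLH transcription factor that starts the root hair programme, had 1598 and 1509 reads in the mutant libraries, against 44 and 107 in the wild type libraries. Scaled to library size, these were 45.2 and 38.7 CPM in the mutant and 1.45 and 2.96 CPM in the wild type. Both mutant libraries lay far above both wild type libraries, and the wild type libraries differed from each other more, in proportion, than the mutant libraries did. The log2 fold change was 4.24 (SE 0.36, edgeR adjusted p = 0.0162). By the size of its rise RHD6 ranked 39 among the 1135 genes called higher in the mutant. Its log2 fold change was 3.83 without wild type replicate 1 (edgeR adjusted p = 0.103) and 4.85 without wild type replicate 2 (edgeR adjusted p = 0.0955). In tissue extracts such as these, a change in the number of cells that express a gene and a change in RNA per cell cannot be told apart.

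RHD6 (AT1G66470) occupies positions 24795214 to 24797015 of chromosome 1 (TAIR10.1, plus strand), and its 5 exons overlap no other annotated gene. RSL1, on chromosome 5 from 15036066 to 15037884, encodes a related protein with overlapping function. The longest stretch shared letter for letter by the spliced RHD6 and RSL1 models was 43 bases, across an exon junction. It is shown because a read lying wholly inside it could belong to either gene.
RHD6 and RSL1, shared stretch: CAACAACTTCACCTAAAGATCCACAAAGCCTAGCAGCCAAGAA
RSL1 nevertheless held 0 reads in all 4 libraries, also in the mutant libraries with their 1598 and 1509 RHD6 reads. A count of 0 allows up to 3 reads, which amounts to 0.0849 and 0.0770 CPM in the mutant libraries and 0.0986 and 0.0830 CPM in the wild type libraries. RHD6 shared at most 13 bases with RSL2 and 12 with RSL4.

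The genes placed after RHD6 stayed at the floor of detection. RSL2, a bHLH gene of root hair elongation, had 1 read in each mutant library and 0 in each wild type library. RSL4, whose level sets the final length of a hair, had 0 and 3 reads in the mutant and 1 and 0 in the wild type. Neither gene was tested, and no fold is given because both genotypes held 3 reads or fewer in all. The 18.8-fold higher RHD6 level in the mutant stood beside no more RSL2 and RSL4 reads than these. The related loci AT2G14760 and AT5G43175, annotated as bHLH genes, had no read in any library.

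LRL3, a bHLH gene of the group named for a Lotus japonicus root hair regulator, had 17 and 32 reads in the mutant and 21 and 23 in the wild type. The mutant libraries lay on either side of the wild type libraries, and the log2 fold change of -0.02 was far smaller than its SE of 0.46 (edgeR adjusted p = 0.979). Its relatives were more abundant. LRL1 had 44.9 ± 7.63 CPM in the mutant and 54.7 ± 4.04 in the wild type, and LRL2 had 21.2 ± 4.69 and 14.2 ± 0.389 (SD, n = 2 each). Neither passed the threshold (edgeR adjusted p = 0.245 and 0.103), although LRL2 passed in the counts as deposited (edgeR adjusted p = 0.0262) and without mutant replicate 2 (0.0488). LRL3 shared at most 23 bases with LRL1 and 17 with LRL2.

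Among the patterning genes, TTG1 encodes the WD40 scaffold of the complex that specifies hairless cells. It had 41.2 and 43.9 CPM in the mutant and 37.9 and 37.3 CPM in the wild type. The genotypes did not overlap, but the difference was small and did not pass the test (log2 fold change 0.18, SE 0.08, edgeR adjusted p = 0.200). CPC, the mobile inhibitor of that complex, had 17.1 and 17.0 CPM in the mutant and 21.2 and 17.8 CPM in the wild type (log2 fold change -0.19, SE 0.12, edgeR adjusted p = 0.334). Its 2 wild type libraries were further apart than the lower of them was from the mutant libraries.

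WER, the MYB partner of TTG1 in the root, had 48 and 51 reads in the mutant and 30 and 67 in the wild type. The mutant libraries lay between the wild type libraries, and the log2 fold change was -0.09 (SE 0.43, edgeR adjusted p = 0.902). GL2, the target of the complex, had 11 and 18 reads in the mutant and 4 and 8 in the wild type. The groups did not overlap, which followed from the read-count filter, as GL2 passed it through its mutant libraries alone. The log2 fold change of 1.11 had an SE of 0.59 (edgeR adjusted p = 0.263). GL2 (chromosome 1, 30036956 to 30041440) shares 6.18% of its exon bases with other annotated genes. Among protein-coding genes with at least 90% of their exon bases shared with another gene, 92.5% had no read in any library, against 18.5% of those with at most 10% shared. A count of 0 in such a gene is therefore not read as absence here. The exons of the other 9 regulators share no base with another annotated gene.

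EGL3, a bHLH partner of WER and TTG1, had 115 and 188 reads in the mutant and 61 and 67 in the wild type. Both mutant libraries were higher, and they differed more from each other than the wild type libraries did. The log2 fold change was 1.07 (SE 0.30), which missed the threshold (edgeR adjusted p = 0.0901). GL3, its partly redundant relative, fell to 98 and 104 reads in the mutant, against 478 and 787 in the wild type (log2 fold change -2.78, SE 0.21, edgeR adjusted p = 0.0151). The longest stretch shared by the spliced models of the pair was 38 bases, within coding sequence at chr1:23599857-23599894, and is shown for the same reason as the RHD6 stretch.
EGL3 and GL3, shared stretch: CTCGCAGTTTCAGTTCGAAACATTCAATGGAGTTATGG

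The balance between these bHLH partners, examined after their values were seen, differed between the genotypes. EGL3 made up 54.0% of the EGL3 and GL3 reads in mutant replicate 1 (Wilson 95% interval 47.3 to 60.6) and 64.4% in mutant replicate 2 (58.7 to 69.7). In the wild type it made up 11.3% (8.91 to 14.3) in replicate 1 and 7.85% (6.23 to 9.84) in replicate 2. Such intervals and the limits from counts of 0 reflect counting error alone and leave out the spread between libraries. Sequenced reads lacking molecular identifiers can be copies of 1 molecule, so even the counting error may be understated. Scaled to exon length and library size (RPKM), EGL3 and GL3 together summed to 2.27 and 2.83 in the mutant and 6.58 and 8.76 in the wild type. The pair was thus lower in sum in both mutant libraries, while EGL3 took a larger share there than in the wild type. With 2 libraries against 2, a two-sided exact permutation test of such a share cannot give a p below 0.333, so none was run.

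**Figure D2:**
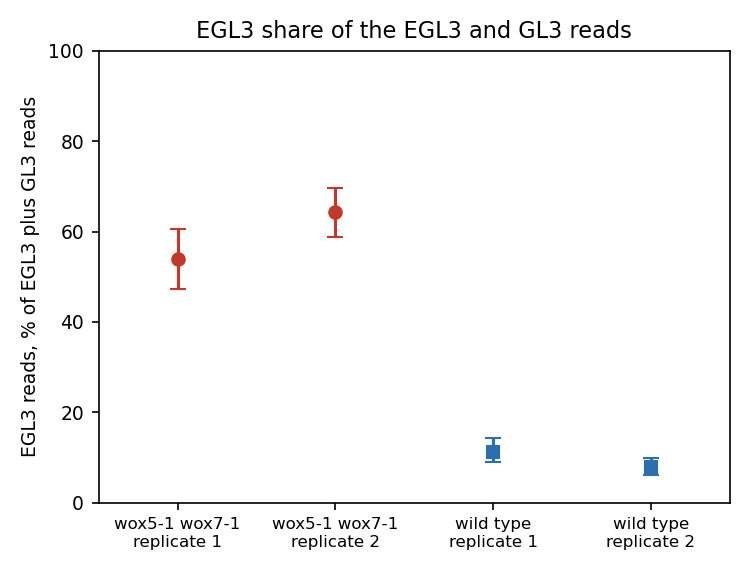
Percent of all EGL3 and GL3 reads that came from EGL3, for the 2 wox5-1 wox7-1 libraries (circles, left) and the 2 wild type libraries (squares, right), with Wilson 95% intervals as bars. The mutant libraries stand at 54.0% and 64.4% and the wild type libraries at 11.3% and 7.85%.

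The other patterning genes were sparse. Of 11 relatives of the complex, 3 were tested, of which 1 fell, 0 rose and 2 did not pass, beside 5.81% of all tested genes called lower. All 3 had lower levels in both mutant libraries, beside 64.4% of all tested genes whose genotypes did not overlap in either direction. The share with lower mutant levels alone was not computed. TTG2 passed the read-count filter through its wild type libraries alone, so its lower mutant level was fixed by that filter. MYC1, a bHLH gene of the same group, had 2 and 12 reads in the mutant and 32 and 50 in the wild type (log2 fold change -2.70, SE 0.79, edgeR adjusted p = 0.0936). Its log2 fold change was -1.98 without mutant replicate 1 and -4.34 without mutant replicate 2, and it passed with DESeq2 (adjusted p = 0.0491), with the replicate block and in the counts as deposited (edgeR adjusted p = 0.0243). TTG2, a WRKY gene switched on by the complex in epidermal cells, had 1 and 2 reads in the mutant and 9 and 17 in the wild type (edgeR adjusted p = 0.0627). TTG2 passed in the counts as deposited (edgeR adjusted p = 0.0299) and with the replicate block (0.0406). The ratio of its read totals, mutant over wild type, was 0.103 with an exact (Clopper-Pearson) 95% interval of 0.0200 to 0.337. Of the small MYB genes related to CPC, TRY had 3 and 6 reads in the mutant and 2 and 1 in the wild type. ETC1, ETC2 and CPL3 had at most 1 read in a library, so CPC accounted for nearly all reads of these inhibitors. MYB23 and GL1, which can stand in for WER in other settings, had at most 2 reads in a library, and TT8 had none. MYB5 also had none, but all its exon bases are shared with another gene.

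Compared per exon length, CPC and TTG1 were the most abundant of the 10 in the wild type, at 25.6 ± 3.15 and 20.0 ± 0.205 RPKM (SD, n = 2). RHD6 followed at 1.54 ± 0.750 RPKM and WER at 1.13 ± 0.488 RPKM, and these 2 overlapped in their libraries. EGL3 had 0.737 ± 0.0413, LRL3 0.501 ± 0.0291 and GL2 0.0551 ± 0.0198 RPKM. In the mutant RHD6 headed the order at 29.4 ± 3.23 RPKM, above TTG1 at 22.6 ± 1.02 and CPC at 22.4 ± 0.107, which did not differ beyond their spread. Next in the mutant came EGL3 at 1.54 ± 0.424, WER at 1.06 ± 0.0283, LRL3 at 0.492 ± 0.182 and GL2 at 0.121 ± 0.0332 RPKM. Summed over the 10 genes, the level was 109 and 107 CPM in the mutant and 64.4 and 62.7 CPM in the wild type. Most of this difference was RHD6 alone, at 45.2 and 38.7 CPM in the mutant and 1.45 and 2.96 CPM in the wild type.

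Upstream of the regulators, 6 of 8 listed genes were tested, of which 2 rose, 1 fell and 3 did not pass, beside 6.06% of all tested genes called higher and 5.81% called lower. OBP4, a DOF transcription factor known to restrain root hair growth, rose to 10.1 ± 0.605 CPM in the mutant, against 3.29 ± 0.193 CPM in the wild type (log2 fold change 1.61, SE 0.17, edgeR adjusted p = 0.0197). AT1G68360, annotated as a zinc finger gene, had 279 and 384 reads in the mutant and 86 and 146 in the wild type (log2 fold change 1.37, SE 0.26, edgeR adjusted p = 0.0449). Its call was lost without mutant replicate 1 (edgeR adjusted p = 0.0502) or mutant replicate 2 (0.104). ZFP5, a zinc finger gene of hair initiation, had 371 and 654 reads in the mutant and 120 and 215 in the wild type, and missed the threshold (edgeR adjusted p = 0.0594), which it passed with DESeq2 (adjusted p = 0.000849), with the replicate block (edgeR adjusted p = 0.00644) and without mutant replicate 1 (0.0370). JKD, a zinc finger gene of the ground tissue that sends positional information to the epidermis, fell to 37.8 ± 5.54 CPM in the mutant, against 103 ± 1.87 CPM in the wild type (log2 fold change -1.45, SE 0.12, edgeR adjusted p = 0.0161). AT1G76880 had no read in any library, and all its exon bases are shared with another gene.

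Genes that build the root hair ranged from no reads to high levels in both genotypes, and most of those tested did not pass. Of 29 listed effectors, 16 were tested, of which 1 rose, 2 fell and 13 did not pass, beside 11.9% of all tested genes called in either direction. Their median log2 fold change was -0.24. A further 6 had no read in any library, and 12 of the 29 held at most 10 reads in every library. The summed level of the list was 843 and 816 CPM in the mutant and 881 and 907 CPM in the wild type. Most of that sum came from effectors not named here, which were expressed in both genotypes. RHS19, a peroxidase gene named for its expression in root hairs, rose to 94 and 77 reads in the mutant, against 1 and 0 in the wild type (edgeR adjusted p = 0.0226). The ratio of its read totals was 153, with an exact (Clopper-Pearson) 95% interval of 27.1 to 6085. Its fitted log2 fold change of 6.95 was 3.09 in the counts as deposited and 9.42 without wild type replicate 1. Both mutant libraries held RHS19 reads in number, and the wild type held a single read. RHS19 thus passed the read-count filter through its mutant libraries alone, and its place among the 16 tested effectors depended on them. PIP5K3, a phosphoinositide kinase gene of root hair tip growth, fell to 44 and 42 reads in the mutant, against 178 and 209 in the wild type (log2 fold change -2.32, SE 0.24, edgeR adjusted p = 0.0195). RHD2, the NADPH oxidase gene of hair growth, had 7 and 8 reads in the mutant and 4 and 33 in the wild type, where the libraries lay on either side of the mutant. LRX2, a cell wall gene of root hairs, fell to 117 and 114 reads in the mutant, against 385 and 370 in the wild type (log2 fold change -1.88, SE 0.20, edgeR adjusted p = 0.0196).

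The root hair element is a promoter motif described from genes expressed in hair cells, EXPA7 among them, and RSL4 is known to bind it. On either strand of the window from 250 bases before to 50 bases after the annotated start, 9 of the 29 effector genes held it, against 0.867% of 27443 protein-coding genes. Several of these genes served to define the element, so the excess is not independent of how it was found. None of the 10 regulators held it. A set of 5 sites is printed because they mark genes that the hair programme uses, with the element in capitals, 10 flanking bases in lower case and the strand of the element given.
EXPA7, chr1:4276417-4276453, plus: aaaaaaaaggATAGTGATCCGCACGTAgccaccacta
LRX1, chr1:4069889-4069924, minus: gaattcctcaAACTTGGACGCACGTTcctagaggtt
PRP3, chr3:23182545-23182581, minus: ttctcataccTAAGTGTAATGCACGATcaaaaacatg
RHS10, chr1:26555683-26555718, minus: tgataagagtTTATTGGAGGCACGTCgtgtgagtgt
RHS18, chr5:7426208-7426243, plus: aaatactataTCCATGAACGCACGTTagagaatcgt
Coordinates and sequence are those of TAIR10.1 (RefSeq). Of the 9 genes with the element, 5 had no read in any library, among them PRP3, a cell wall protein gene, and RHS18, a peroxidase gene. EXPA7, an expansin gene of hair outgrowth, had 2 and 0 reads in the mutant and 0 and 0 in the wild type. LRX1, a cell wall protein gene, had 6 and 0 reads in the mutant and 0 and 1 in the wild type. RHS10, a receptor-like kinase gene that limits hair growth, was the only one of the 9 with enough reads to test, at 6.54 ± 1.16 CPM in the mutant and 7.48 ± 0.298 CPM in the wild type (SD, n = 2 each; edgeR adjusted p = 0.532). RHS19 did not hold the element in this window, which says only that these letters are absent there.

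**Figure D3:**
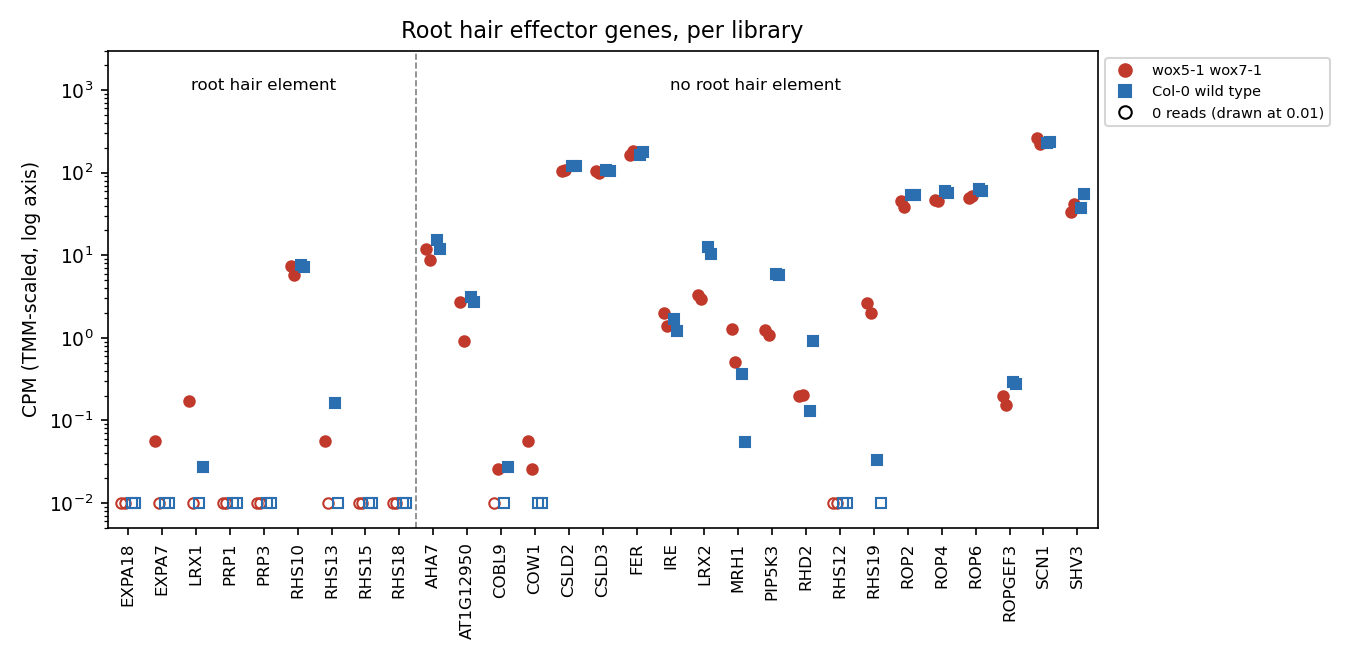
Level of 29 root hair effector genes in every library, in CPM on a log axis, with wox5-1 wox7-1 as circles left of the wild type as squares, split by whether the promoter window holds the root hair element. Genes with the element lie at or near 0 reads in both genotypes except RHS10, and RHS19 stands out among the others at 94 and 77 reads in the mutant against 1 and 0 in the wild type.

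Some genes of epidermal identity fell in the mutant, and others did not. Of 7 listed HD-ZIP IV and outer-layer genes, 6 were tested, of which 3 fell, 0 rose and 3 did not pass, beside 5.81% of all tested genes called lower and 6.06% called higher. ATML1, a homeodomain gene that specifies epidermis, fell to 87 and 354 reads in the mutant, against 1506 and 1960 in the wild type (log2 fold change -3.16, SE 0.62, edgeR adjusted p = 0.0474). Its mutant libraries differed widely from each other, yet both lay below the wild type. The log2 fold change of ATML1 was -2.52 without mutant replicate 1 and -4.39 without mutant replicate 2, with its call kept in both. Its relative PDF2 fell to 2090 and 3335 reads in the mutant, against 4777 and 5755 in the wild type (log2 fold change -1.13, SE 0.19, edgeR adjusted p = 0.0372). ACR4, an epidermal receptor kinase gene, fell to 39.8 ± 2.79 CPM in the mutant, against 65.0 ± 2.43 CPM in the wild type (log2 fold change -0.71, SE 0.09, edgeR adjusted p = 0.0232). HDG2, another gene of the family, lay the other way with 53 and 87 reads in the mutant and 20 and 22 in the wild type (log2 fold change 1.56, SE 0.38, edgeR adjusted p = 0.0695). HDG12 was at a log2 fold change of -0.55 (edgeR adjusted p = 0.0654) and HDG11 at 0.04 (0.926). The summed level of the list was 135 and 157 CPM in the mutant and 304 and 311 CPM in the wild type. GL2 belongs to the same family and stayed below 0.5 CPM in every library. Of 5 flavonoid genes that TTG1 and EGL3 complexes can switch on in other tissues, 4 had no read in any library and BAN had 2 and 0 reads in the mutant.

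Among listed cell type markers, 1 of 2 tested root cap genes rose in the mutant (SMB), as did 1 of 2 tested xylem genes (XCP1). The 1 tested endodermis gene (MYB36) rose too. Of 2 tested phloem genes and 1 tested stomatal gene, 0 rose. The share of all tested genes called higher was 6.06%. The 3 root cap genes summed to 86.4 and 101 CPM in the mutant and 7.99 and 10.7 CPM in the wild type. SMB, which controls root cap maturation, had 3032 and 3485 reads in the mutant and 236 and 171 in the wild type (edgeR adjusted p = 0.0135). BRN1, its relative, had 18 and 454 reads in the mutant and 7 and 215 in the wild type, which overlap (edgeR adjusted p = 0.745). The 2 endodermis genes summed to 20.9 CPM in each mutant library and 2.79 and 1.69 CPM in the wild type, all or nearly all from MYB36, and CASP1 was at 0. The 3 xylem genes summed to 7.22 and 4.54 CPM in the mutant and 0.691 and 0.332 CPM in the wild type. XCP1, a xylem protease gene, passed (edgeR adjusted p = 0.0335), though not without mutant replicate 1 (0.0501). VND7, a xylem vessel regulator, had 30 and 15 reads in the mutant and 1 and 0 in the wild type and missed the threshold (edgeR adjusted p = 0.0554). The 2 phloem genes summed to 5.38 and 6.28 CPM in the mutant and 6.41 and 5.92 CPM in the wild type, and the 4 stomatal genes to 0.821 and 0.487 CPM in the mutant and 0.526 and 0.387 CPM in the wild type. The part of these cell types in the rise of RHD6 was not tested.

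**Figure D4:**
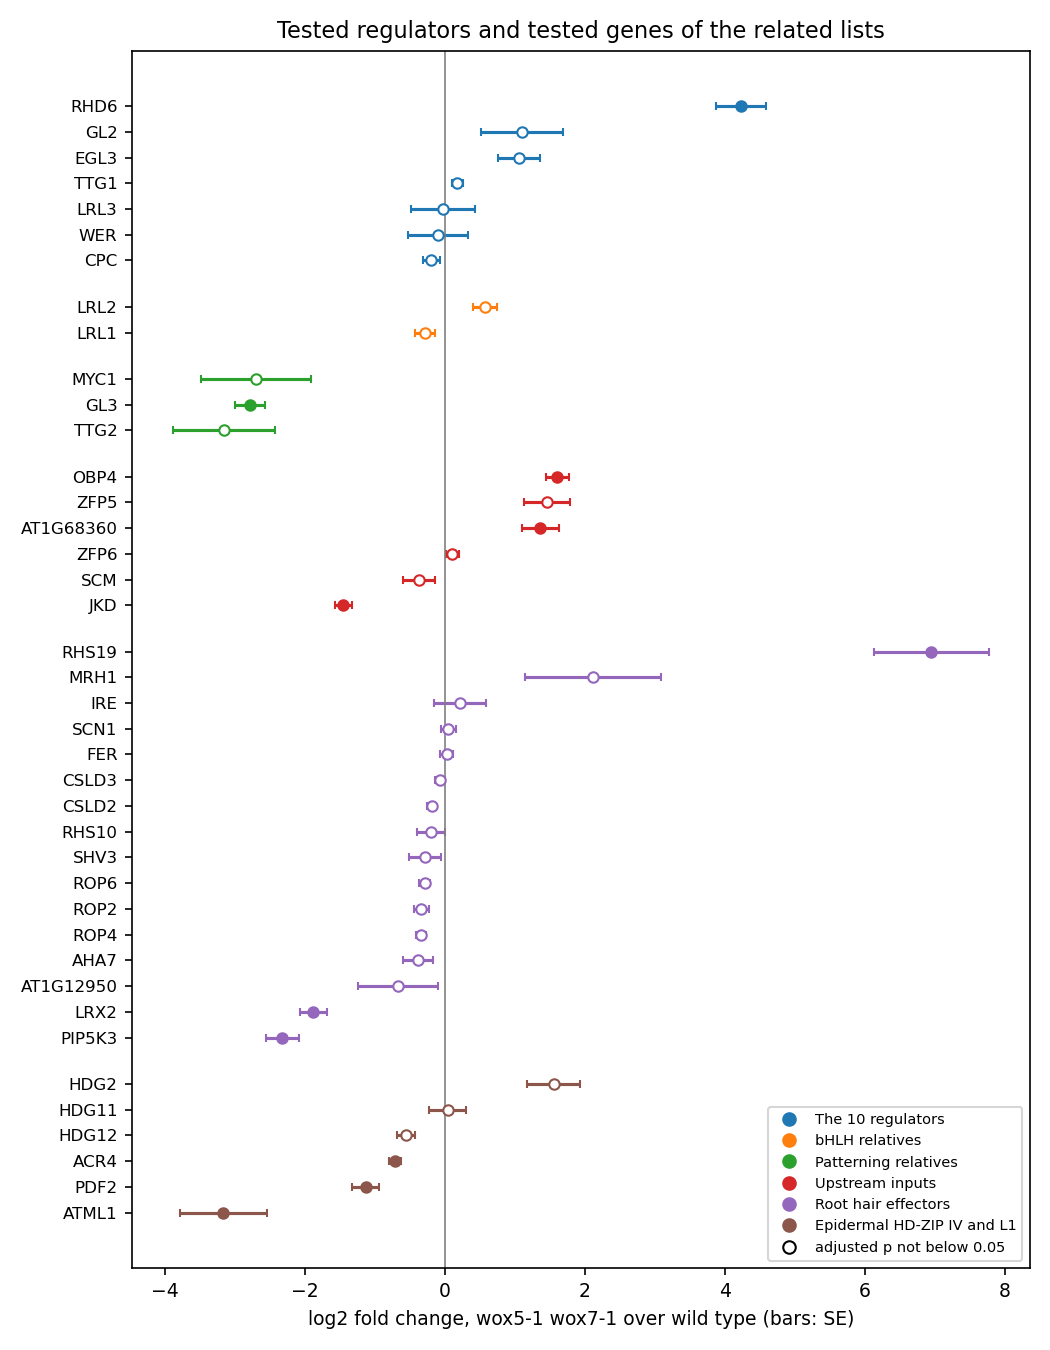
Log2 fold change of wox5-1 wox7-1 over wild type with its SE for the 7 tested regulators and the tested genes of the related lists, with filled symbols for an adjusted p below 0.05. RHD6 (4.24) and RHS19 (6.95) lie far to the right, and GL3 (-2.78), ATML1 (-3.16) and PIP5K3 (-2.32) far to the left. TTG2 (-3.15) and MYC1 (-2.70), which did not pass, also lie far to the left.

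In all, 33 genes of the 6 related lists were tested, of which 3 rose and 7 fell, beside 6.06% and 5.81% of all tested genes. Of these 33 genes, 24 did not overlap between genotypes, beside 64.4% of all tested genes in either direction. The mutant was above for 7 and below for 17, but the share of all tested genes on each side was not computed. Among the 24, TTG2 and RHS19 passed the read-count filter only through the genotype where they were higher. The genes whose pattern over the 4 libraries was most like that of RHD6 were AT1G75945, CNGC15, MAPKKK17, AT5G02640 and MYB305. Likeness was the Euclidean distance between log2 CPM values centred on each gene's mean, and it ranged from 0.488 for AT1G75945 to 0.618 for MYB305 among 16233 genes. MAPKKK17, a protein kinase gene, had 48.0 and 49.2 CPM in the mutant and 2.43 and 3.04 CPM in the wild type. CNGC15, an ion channel gene, had 21.3 and 18.1 CPM in the mutant and 0.559 and 1.94 CPM in the wild type.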

How the data were processed

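Gene-level read counts of 4 libraries were analysed as deposited by the authors. Tools listed without roles in the submitters' processing notes are STAR 2.7.2b, Trim Galore 0.5.0 and DESeq2, with the TAIR10 build. The counting tool, its annotation and its strand setting were not given in the sources used here. Reads of a gene and of an antisense partner thus cannot be told apart. Every deposited count is at least 10, and 33.1% to 35.3% of genes per library hold exactly 10. Among low genes (mean above 10, at most 20, in the deposited values) within-genotype variance was 0.643 (mutant) and 0.448 (wild type) times the mean as deposited, and 2.96 and 2.44 times it after subtracting 10. The constant was therefore taken as added and was subtracted, which is an inference from the values.

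Genes were kept by filterByExpr (minimum count 10), scaled by TMM and tested with glmQLFit and glmQLFTest in edgeR 4.0.16 (R 4.3.3) on all 4 libraries. The model had genotype as its only term, and two-sided p-values were Benjamini-Hochberg adjusted over 18716 genes with a threshold of 0.05. Fold changes are mutant over wild type, and SE is the size of the log2 fold change over the root of the F statistic. The fit was tested on simulated data. CPM are TMM-scaled, and RPKM divides them by the union of RefSeq exons. Names, positions and sequences came from RefSeq TAIR10.1, which matched 32548 identifiers. Alternatives were RLE and upper-quartile scaling, other filters, no subtraction, DESeq2 1.42.0, limma-voom (limma 3.58.1), the replicate number as a block and each library left out. DESeq2 with a library left out was added after seeing the data.

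The 10 genes and the lists were chosen with earlier results of these data known. Named were the 10 genes, WOX5, WOX7, their bHLH and complex relatives, and from other lists the genes past the threshold. Named after their values were seen were the bHLH loci at 0, ZFP5, HDG2, HDG11, HDG12, BRN1, VND7, RHD2, RHS10, EXPA7, LRX1, PRP3, RHS18, BAN, CASP1 and AT1G76880. The locus of 1 listed effector (ROPGEF3) was corrected after the counts were seen. The motif and overlap searches were also chosen then.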

Additional observations from a re-analysis of the deposited data

How the results depend on the processing

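RHD6 was called in 10 of 12 alternatives, with a log2 fold change between 3.83 and 4.85. The count of 1 changed regulator lay between 0 and 1 with a library left out, and it fell to 0 without either wild type library. The count of changed genes was 3416 in the counts as deposited, where another dispersion trend was used, and 3936 with DESeq2. It lay between 0 and 2493 with 1 library left out in edgeR, and between 1210 and 3055 in DESeq2 (1334 without wild type replicate 1 and 1210 without replicate 2). The share of calls that were higher in the mutant was 66.9% in the counts as deposited and 51.1% as reported. The replicate number as a block gave 4750 changed genes, and 17 of the related lists' genes in place of 10. Deviations of same-numbered libraries from their genotype mean correlated at 0.555 across genes, but no label says that the numbers pair the libraries. With the block, edgeR also called MYC1 (adjusted p = 0.0324), TTG2 (0.0406), ZFP5 (0.00644), HDG2 (0.0427), HDG12 (0.0417), BRN1 (0.0378) and VND7 (0.0214), and the other named genes that were tested kept their side of the threshold. The count over the related lists lay between 0 and 12 with a library left out. Among the named genes, signs turned for LRL3, WER, HDG11, BRN1, LBD29, the stomatal gene TMM and the phloem gene SUC2, none of which was called as reported. In log2 fold change, LRL3 was at 0.023 in the counts as deposited and between -0.45 and 0.30 with a library left out, and WER between -0.47 and 0.43. HDG11 was at -0.017 with limma-voom. With a library left out, HDG11 lay between -0.37 and 0.37, BRN1 between -2.59 and 4.70, LBD29 between -1.98 and 3.70 and TMM between -0.58 and 0.90. SUC2 was at 0.051 in the counts as deposited and between -0.15 and 0.082 with a library left out. Depth limits what can be said of RSL1, RSL2, RSL4 and GL2, which held at most 18 reads in a library.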

Other observations

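Genes without reads were far more common where exons are shared with another gene. Of 561 protein-coding genes with at least 90% of their exon bases shared, 519 had 0 reads in every library. Of 23871 genes with at most 10% shared, 4420 had 0 reads. Among the genes listed here this touches MYB5 and AT1G76880, all of whose exon bases are shared.

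LBD29, a callus founder gene, had 6 and 130 reads in the mutant and 4 and 44 in the wild type. In each genotype the library numbered 2 was the higher, as it was for BRN1. Both were picked with their values in view.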
